A study of Homo sapiens with 6 samples.

Results

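The genes described here are 48 genes of DNA replication, chosen by name from a fixed list that covers the loading of the replicative helicase at origins (licensing), its activation, and the proteins that work at the moving fork. All 48 were found by their symbol in both deposited count tables, which list 41471 and 34157 gene symbols, and all 48 passed a filter of a mean CPM (counts scaled to the library total) of at least 1 in each experiment, as did 15295 and 15655 genes in all. The cells were MDA-MB-231, a triple-negative breast cancer cell line with a mesenchymal appearance. In the first experiment, cells carried a lentiviral scramble shRNA, CDK16-sh1 or CDK16-sh2, and were kept as stable lines after sorting by flow cytometry. CDK16 is an atypical cyclin-dependent kinase activated by cyclin Y. In the second experiment, MDA-MB-231 cells received the vehicle DMSO or rebastinib (Reb), a kinase inhibitor that acts on CDK16 and also on other kinases such as Tie2, at 1 μM or 5 μM for 48 h. The study made these libraries to ask which transcripts differ once CDK16 is depleted or inhibited.

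Each of the 6 conditions had 1 library, so no difference below has a replicate check. Total counts were between 25838443 and 50303269 per library. The 95% intervals given with fold changes are exact binomial intervals on the counts of a library and its control, and they cover counting error only. The share of all genes beyond such intervals is not reported here, so counts of members beyond them have no background share. CDK16 itself (chrX:47217860-47229997 on GRCh38, the build of all gene positions below) had 3223 counts with scramble, 1360 with CDK16-sh1 and 846 with CDK16-sh2, a log2 fold change of -1.52 and -1.82. In the Reb experiment it had 4996, 4609 and 2797 counts, or -0.14 and 0.27 once the libraries were scaled. The sign of the 5 μM value rests on the scaling, as scaling by library totals moved the median of all genes there by -0.68. The 4 cell line markers VIM, CD44, ZEB1 and AXL together had at least 64137 counts in every library, and none was at 0. Of 6 luminal markers, ESR1 and PGR had at most 16 counts in any library and were at 0 with 5 μM Reb, while with ERBB2, GATA3, CDH1 and EPCAM the list summed to between 1481 and 3926 counts. The share of counts on mitochondrial genes was 11.3% and 10.4% with scramble and CDK16-sh1 and 16.2% with CDK16-sh2. It was 7.19% and 8.30% with DMSO and 1 μM Reb and 16.4% with 5 μM.

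Replication starts from origins that were licensed beforehand. The origin recognition complex, together with CDC6 and CDT1, loads the ring of MCM2 to MCM7 onto DNA before S phase, and geminin (GMNN) binds CDT1 and stops further loading. The kinase CDC7 with its activator DBF4, and cyclin-dependent kinases, then let CDC45 and the GINS proteins join the ring and form the active helicase. Polymerase alpha-primase lays primers, the RFC clamp loader places PCNA, polymerases delta and epsilon extend the strands, RPA covers single strands, FEN1 and LIG1 join Okazaki fragments, and TIMELESS, TIPIN, CLSPN and WDHD1 tie the helicase to the polymerases and to checkpoint signalling. Many of these genes are transcribed as cells enter S phase and are known targets of E2F factors, whose partner RB is inactivated by cyclin-dependent kinases.

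Promoter sequences are given for 5 members that stood differently against DMSO at 5 μM Reb, so that a reader can see what lies before their starts. Transcripts of CLSPN, GINS1 and MCM6 were more than 2-fold lower there, POLA1 was within 2-fold, and RFC1 was more than 2-fold higher. Each sequence is the 250 bases before the RefSeq start (GRCh38.p14), read 5′ to 3′ on the strand of the gene. CLSPN lies on the minus strand at chr1:35769979-35770228, GINS1 on the plus strand at chr20:25407423-25407672, MCM6 on the minus strand at chr2:135876444-135876693, POLA1 on the plus strand at chrX:24693668-24693917 and RFC1 on the minus strand at chr4:39366363-39366612. Capitals mark the E2F words TTTCCCGC, TTTCGCGC, TTTGCCGC and TTTGGCGC and the word CCAAT, on either strand (CCAAT reads ATTGG on the other strand). In MCM6, TTTGGCGC and the reverse of TTTCGCGC overlap at each of 2 places.
CLSPN: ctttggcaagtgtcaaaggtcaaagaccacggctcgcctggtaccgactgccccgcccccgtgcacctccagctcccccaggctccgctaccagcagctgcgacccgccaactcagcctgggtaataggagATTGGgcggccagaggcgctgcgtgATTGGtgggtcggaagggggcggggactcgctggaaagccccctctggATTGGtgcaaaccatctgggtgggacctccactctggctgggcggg
GINS1: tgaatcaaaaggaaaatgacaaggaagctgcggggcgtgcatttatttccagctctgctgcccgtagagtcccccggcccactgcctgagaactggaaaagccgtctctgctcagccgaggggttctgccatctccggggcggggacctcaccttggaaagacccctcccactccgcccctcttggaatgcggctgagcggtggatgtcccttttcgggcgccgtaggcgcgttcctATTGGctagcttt
MCM6: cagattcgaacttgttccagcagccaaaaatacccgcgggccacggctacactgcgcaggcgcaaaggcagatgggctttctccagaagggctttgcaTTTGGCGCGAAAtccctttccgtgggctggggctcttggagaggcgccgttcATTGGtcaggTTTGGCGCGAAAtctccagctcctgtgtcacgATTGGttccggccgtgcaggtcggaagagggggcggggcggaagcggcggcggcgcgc
POLA1: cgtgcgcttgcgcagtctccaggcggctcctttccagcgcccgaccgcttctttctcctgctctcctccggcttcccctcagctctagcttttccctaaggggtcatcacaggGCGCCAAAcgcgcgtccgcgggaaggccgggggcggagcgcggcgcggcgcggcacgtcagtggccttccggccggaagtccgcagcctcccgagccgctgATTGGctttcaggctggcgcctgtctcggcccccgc
RFC1: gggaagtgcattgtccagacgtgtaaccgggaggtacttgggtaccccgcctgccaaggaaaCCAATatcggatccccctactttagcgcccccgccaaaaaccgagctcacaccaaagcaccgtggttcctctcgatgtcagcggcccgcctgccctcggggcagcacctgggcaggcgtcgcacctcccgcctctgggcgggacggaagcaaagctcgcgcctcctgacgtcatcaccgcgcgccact

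CLSPN held 3 CCAAT words and no E2F word, GINS1 held 1 CCAAT word close to its start, and MCM6 held 4 E2F words and 2 CCAAT words. POLA1 held 1 word of each kind, and RFC1 held 1 CCAAT word. A promoter was listed for 42 of the 48 members. Of these, 12 (28.6%) held an E2F word, as did 2.79% of 27305 promoters, and 24 (57.1%) held CCAAT, as did 33% of all. The 27305 are 1 promoter per listed symbol and were not limited to the genes tested here. For 37 of the 42, bases just after the start were found in an annotated transcript of the gene. Some windows, such as that of MCM7, lie wholly inside the deposited span of the gene. The word TTTGAA, the core of the cell-cycle element CHR, was in none of the 42 and in 13.6% of all promoters. E2F words were in 5 of the 22 listed members that were at least 2-fold lower at 5 μM Reb and in 7 of the 20 that were not. CCAAT was in 14 of the former and 10 of the latter. A matching word describes the sequence, not a bound site.

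In the control libraries the replication genes were expressed at a wide range of levels. RPKM, the read count per unit of gene length and of library total, allows comparison between genes. With scramble, MCM3 was highest at 93.7 RPKM, followed by the flap nuclease FEN1 at 84.3 and the sliding clamp PCNA at 74.5, and ORC5 was lowest at 2.27. With DMSO the same range ran from 125 RPKM for MCM3 to 1.64 for ORC5. Across the 48 genes, log2 RPKM in the scramble and DMSO libraries correlated with a Pearson r of 0.94, a description in which both libraries share the cell line and the gene lengths. The median member had 12.1, 8.27 and 6.43 RPKM with scramble, CDK16-sh1 and CDK16-sh2, and 11.4, 12.1 and 3.37 RPKM with DMSO, 1 μM and 5 μM Reb. The members took 0.387%, 0.326% and 0.234% of all counts in the first experiment and 0.335%, 0.369% and 0.111% in the second. RPKM divides by the total count, so these levels also move with the mitochondrial share. The plot of RPKM by library shows that the lowest levels of most subunits were in the 5 μM library.

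**Figure D1:**
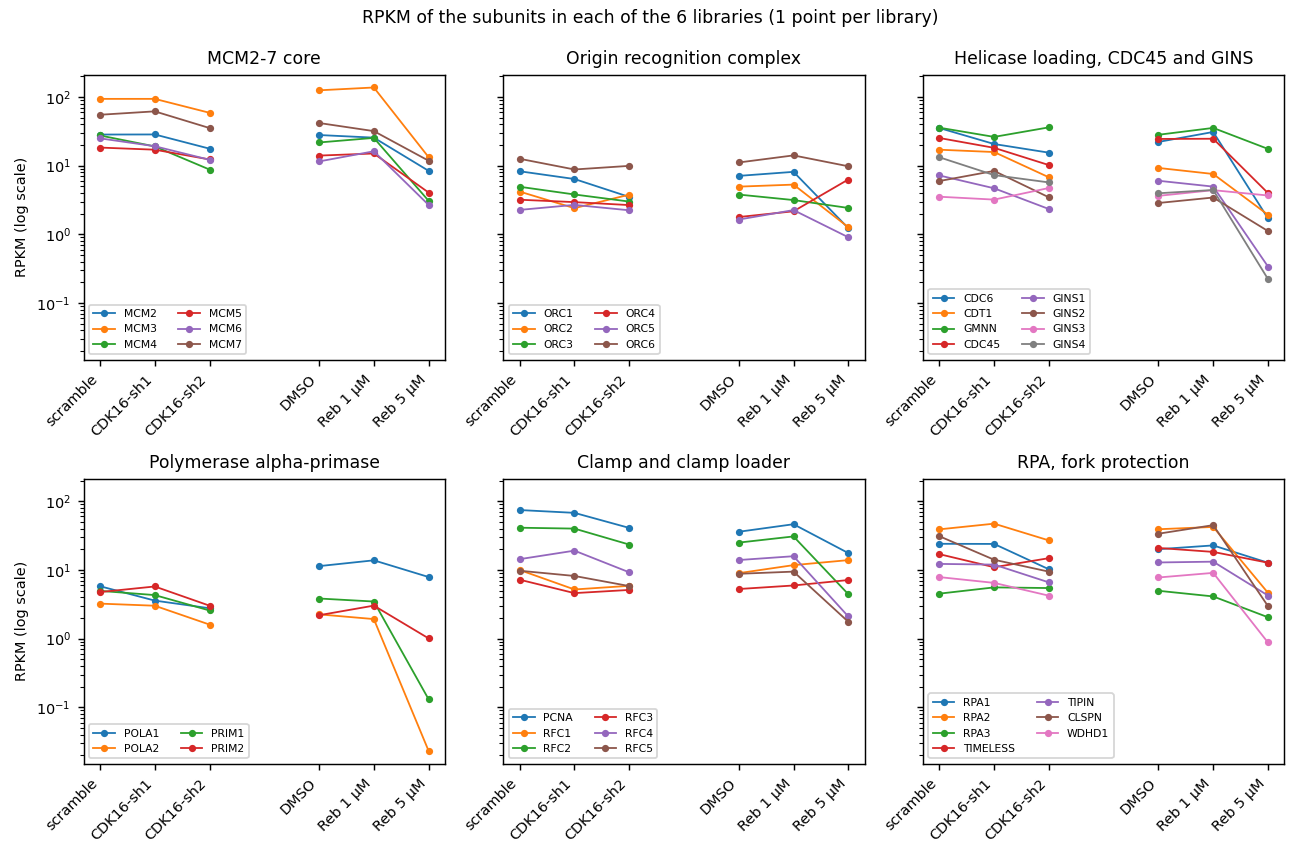
RPKM (log scale) of most of the replication genes in 6 panels by complex, 1 point per library. The knockdown libraries are on the left and the Reb libraries on the right of each panel. MCM8, MCM10, DBF4, CDC7, POLD1, POLD2, POLD3, POLE, POLE2, FEN1 and LIG1 are not drawn. MCM3 was 125 RPKM with DMSO and 13.3 RPKM at 5 μM Reb, and POLA2 was 2.25 and 0.0232, whereas ORC4 was 1.78 and 6.28.

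With CDK16-sh1, most of the replication genes stayed within 2-fold of scramble and lay on both sides of it. Of the 48, 36 were below their level in the scramble library, where 50.1% of all genes were. The median log2 fold change was -0.25, where the median of all 15295 genes was -0.0018. CLSPN was the 1 member at least 2-fold lower, where 6.86% of all genes were, and no member was at least 2-fold higher, where 4.33% were. The counting interval of the log2 fold change lay below 0 for 28 members, above 0 for 9 and across 0 for 11 (share of all genes not reported here).

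With CDK16-sh2, more of the replication genes were past the threshold. Of the 48 members, 40 were lower than with scramble, where 48.6% of all genes were. The median log2 fold change was -0.53 against 0.018 for all genes, and 8 members were at least 2-fold lower, where 7.62% of all genes were. No member was at least 2-fold higher, where 2.2% of all genes were. The 8 were CLSPN, MCM4, GINS1, CDT1, CDC45, RPA1, ORC1 and GINS4, while CDC6 at -0.995 and LIG1 at -0.99 fell just short. In this library the mitochondrial share was higher as well. Leaving out mitochondrial and small RNA genes before scaling gave the same 8 as a count, where 7.65% of all genes passed. Scaling by library totals gave 13, where 11.1% of all genes passed. With GC and length trends removed 5 were left, where 6.12% of all genes passed, as ORC1 (-0.98), GINS4 (-0.90) and RPA1 (-0.92) fell short of 2-fold.

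CLSPN (chr1:35720218-35769967, minus strand) encodes claspin, the fork adaptor needed to activate the checkpoint kinase CHK1. It had 4328 counts with scramble, 2432 with CDK16-sh1 and 1404 with CDK16-sh2. On the log2 scale this is -1.11 (interval -1.18 to -1.04) and -1.52 (-1.61 to -1.43), so that it was past 2-fold with each hairpin, both read against the same scramble library. Removing trends with GC content and gene length brought the first value to -0.89. An antisense gene, RP11-435D7.3, shares 280 bases with CLSPN exons and had 1136, 652 and 399 counts. Whether counting used the strand is not given in the sources used here.

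The helicase ring differed between the hairpins. MCM4 had 4847, 4152 and 1645 counts with scramble, CDK16-sh1 and CDK16-sh2, log2 fold changes of -0.50 and -1.45. MCM6 was at -0.35 and -0.84. MCM3, the most abundant subunit, had 8840, 10939 and 5903 counts, or 0.03 and -0.48. MCM7 (chr7:100092728-100101940, minus strand) had 6238, 8647 and 4254 counts and lay at 0.19 and -0.45, the first at -0.012 with GC and length trends removed. All 6 ring subunits were lower with CDK16-sh2, by a median of -0.48, whereas 3 of 6 were lower with CDK16-sh1, by a median of -0.02. Their summed RPKM was 248 with scramble, 239 with CDK16-sh1 and 145 with CDK16-sh2.

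Of the proteins that load or complete the helicase, CDT1 had 1470, 1681 and 620 counts, with log2 fold changes of -0.08 and -1.14. CDC6, the loader ATPase, had 4668, 3376 and 2174 counts, at -0.74 and -0.995. GMNN, the inhibitor of CDT1, had 2283, 2073 and 2457 counts, at -0.42 and 0.21. The inhibitor transcript was thus the highest of its 3 libraries in the one where CDT1 was lowest. The place of GMNN above scramble beyond its interval rests on the scaling, as library totals moved the median of all genes there by -0.19. CDC45, which joins the ring to form the active helicase, had 1857, 1651 and 797 counts and lay at -0.45 and -1.11. Its GINS partners were not all on 1 side of their control. GINS1 had 756, 608 and 261 counts (-0.59 and -1.42) and GINS4 had 1871, 1273 and 857 (-0.83 and -1.02). GINS2 had 503, 873 and 310 counts (0.52 and -0.59), and GINS3 had 465, 522 and 663 (-0.11 and 0.62), the highest log2 fold change of any member with CDK16-sh2. GINS4 shares 21.2% of its exon bases with an antisense gene.

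In the origin recognition complex, ORC1, the subunit whose level is best known to vary through the cell cycle, had 675, 644 and 304 counts with scramble, CDK16-sh1 and CDK16-sh2 and lay at -0.34 and -1.04. ORC2 had 631, 448 and 606 counts, lower with CDK16-sh1 (-0.77) and at 0.05 with CDK16-sh2. ORC6 had the highest RPKM of the complex, with 1400, 1210 and 1175 counts (-0.49 and -0.15). ORC3, ORC4 and ORC5 were within -0.52 and 0.27 with either hairpin.

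At the fork, subunits of the single-strand binding protein RPA differed with CDK16-sh2. RPA1 had 3407, 4195 and 1543 counts, a log2 fold change of 0.02 with CDK16-sh1 and -1.04 with CDK16-sh2. RPA2 had 2034, 3044 and 1493 counts (0.30 and -0.34), and RPA3 had 377, 575 and 484 (0.33 and 0.47). RPA1 was thus past 2-fold lower with CDK16-sh2 while RPA3 lay above its control there. Of polymerase alpha-primase, POLA1 was at -0.66 and -0.87, POLA2 at -0.07 and -0.81, PRIM1 at -0.17 and -0.75 and PRIM2 at 0.30 and -0.46. PCNA had 2831, 3186 and 1655 counts (-0.11 and -0.67). Among the loader subunits RFC1 was at -0.91 and -0.57 and RFC4 at 0.44 and -0.44. POLD2 was higher in both knockdown libraries (0.43 and 0.37), POLD3 lower in both (-0.82 and -0.38), and POLE and POLE2 lower in both (-0.25 and -0.63 for POLE, -0.29 and -0.60 for POLE2). The DNA ligase LIG1 had 4724, 3614 and 2208 counts (-0.66 and -0.99). TIMELESS had 2551, 2036 and 2373 counts (-0.60 and 0.0025), and its partner TIPIN had 871, 1052 and 499 (-0.0043 and -0.69), so the pair were lower with different hairpins.

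The hairpins could be compared directly, since each was read against the same control. The CDK16-sh2 level lay below the CDK16-sh1 level, beyond counting error, for 31 of the 48 members and above it for 11. The median difference was -0.32 on the log2 scale. The same counts over all genes are not reported here, so these have no background share. RPA1 differed by -1.06, GINS2 by -1.11 and CDT1 by -1.05, while GINS3 differed by 0.73. With both knockdown libraries taken as 1 group, edgeR's quasi-likelihood test called 0 of the 48 members and 0 of the 15295 genes (0% of all genes) at an adjusted p of 0.05 and 2-fold. The difference between the hairpins then sets the spread. CLSPN was the 1 member with an unadjusted p under 0.05 in edgeR's quasi-likelihood test across all genes (unadjusted 0.0089, adjusted p = 1.00), as were 382 genes in all. DESeq2 also called 0, with 1 member and 233 genes under 0.05 before adjustment.

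**Figure D2:**
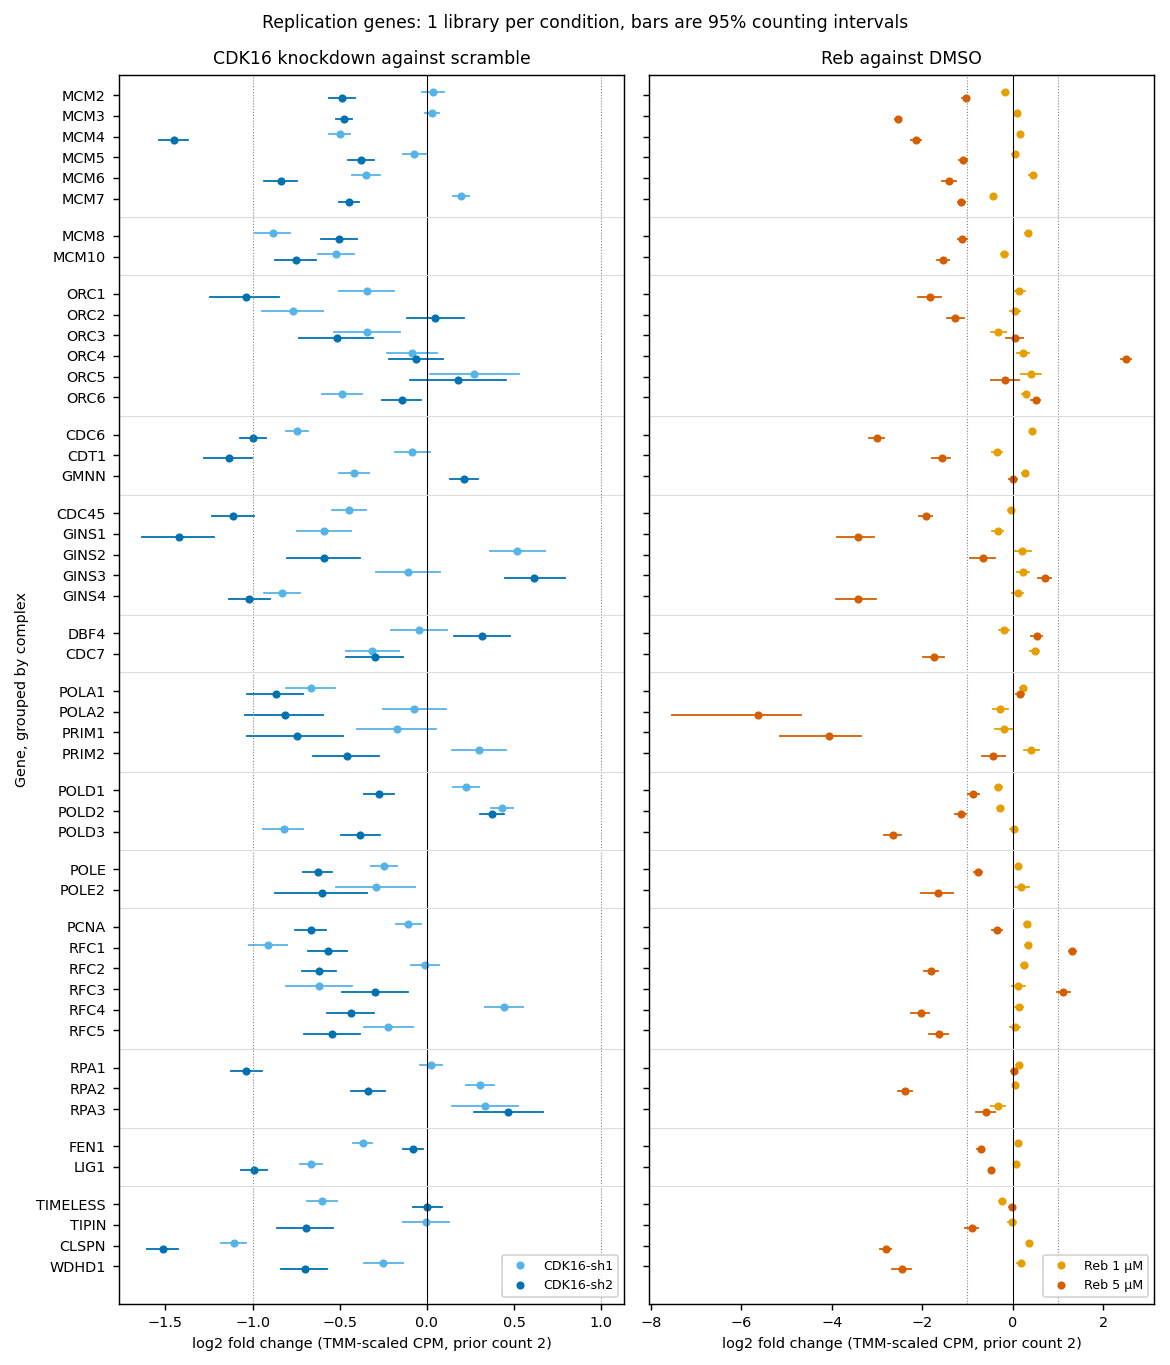
Log2 fold changes of the 48 replication genes, grouped by complex, for the knockdown libraries against scramble (left) and the Reb libraries against DMSO (right), with 95% counting intervals as bars and dotted lines at 2-fold. CLSPN lies past 2-fold with each hairpin, all 1 μM points lie between the dotted lines, and the 5 μM points run from -5.63 for POLA2 to 2.50 for ORC4.

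After 1 μM Reb, no member was 2-fold away from DMSO, where 1.92% of all genes were at least 2-fold lower and 1.28% at least 2-fold higher. The log2 fold changes ran from -0.44 for MCM7 to 0.49 for CDC7. Their median was 0.12, against 0.0016 for all 15655 genes, and 15 of the 48 were below DMSO, where 49.8% of all genes were. The interval lay above 0 for 26 members and below it for 13 (share of all genes not reported here). MCM6 had 2384 counts with DMSO and 3289 with 1 μM Reb, a log2 fold change of 0.44. CDC6 had 5702 and 7813 (0.43), and CLSPN had 9168 and 11991 (0.36). These transcripts were thus above the control at 1 μM, whereas MCM7 had 9211 and 6887 counts (-0.44), CDT1 had 1553 and 1244 (-0.34) and GINS1 had 1232 and 994 (-0.33). All 6 clamp and clamp loader genes were above DMSO, by a median of 0.19. The 1 μM library also held 181 counts of the blood markers PTPRC, CD3E, CD79A and LYZ, of which none was at 0, against 11 and 12 in the DMSO and 5 μM libraries, and their part in these values was not tested.

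After 5 μM Reb, transcripts of most replication genes were far lower than with DMSO. Of the 48, 38 were below DMSO, where 51.7% of all genes were. At least 2-fold lower were 27, where 27.2% of all genes were, and 3 were at least 2-fold higher, where 23.6% of all genes were. The median log2 fold change was -1.12, against -0.070 for all genes. Intervals lay below 0 for 36 members and above 0 for 7 (share of all genes not reported here). MCM2 at -1.04 was the member nearest to the 2-fold line among those past it, and TIPIN at -0.91 the nearest short of it. A bulk library cannot tell fewer cells in S phase from less of these transcripts per cell. The mitochondrial share was higher in this library, as given above. With mitochondrial and small RNA genes left out, 27 members were again at least 2-fold lower, where 27.2% of all genes were. With GC and length trends removed 23 were lower, where 25.8% of all genes were, and 2 higher, where 22.4% were. Scaling by library totals moved the median of all genes by -0.68 and gave 36 members lower and 1 higher. Of all genes, 43.4% were then lower and 11.7% higher.

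The largest differences were in polymerase alpha-primase, the complex that starts each new strand. POLA2 (chr11:65261762-65305589, plus strand), its regulatory subunit, had 649 counts with DMSO, 544 with 1 μM and 5 with 5 μM Reb, a log2 fold change of -5.63 (interval -7.54 to -4.68). PRIM1 (chr12:56731596-56752373, minus strand), the catalytic primase subunit, had 470, 417 and 12 counts, or -4.06 (-5.15 to -3.37). By contrast POLA1, the polymerase subunit of the same complex, had 3621, 4316 and 1881 counts, or 0.16, and PRIM2 had 514, 696 and 177, or -0.43. POLA1 lay below DMSO, at -0.53, when libraries were scaled by their totals. The complex therefore held the member furthest below DMSO and a member within 2-fold of it.

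The GINS complex was split in the same library. GINS1 (chr20:25407727-25452628, plus strand) had 1232, 994 and 52 counts and lay at -3.43 (-3.89 to -3.06) at 5 μM, and GINS4 had 1090, 1194 and 46 counts and lay at -3.43 (-3.92 to -3.03). GINS2 had 469, 553 and 137 counts (-0.66), whereas GINS3 had 932, 1107 and 706 (0.71, and 0.02 with library totals). CDC45, which binds GINS in the active helicase, had 3502, 3460 and 427 counts (-1.92).

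Each of the 6 ring subunits was at least 2-fold lower, from -1.04 for MCM2 to -2.54 for MCM3, but 3 of the 6 calls were lost with GC and length trends removed, where MCM2 lay at -0.60, MCM5 at -0.59 and MCM7 at -0.74. With DESeq2 size factors MCM2 lay at -0.98. MCM3 (chr6:52264009-52284881, minus strand) had 22940, 24751 and 1826 counts, which is 5.82-fold lower at 5 μM. MCM4 had 7461, 8536 and 790 counts (-2.13) and MCM7 had 9211, 6887 and 1947 (-1.13). The other subunits were MCM2 with 6880, 6185 and 1550 counts, MCM5 with 5168, 5440 and 1120 (-1.10) and MCM6 with 2384, 3289 and 415 (-1.41). Summed over the ring, RPKM was 242 with DMSO, 251 with 1 μM and 43.3 with 5 μM Reb. MCM8 and MCM10, which are outside the ring, had 5020, 6427 and 1078 counts (-1.11) and 3438, 3073 and 545 counts (-1.55).

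Of the loading factors, CDC6 had 5702, 7813 and 329 counts with DMSO, 1 μM and 5 μM Reb, a log2 fold change of -3.00 (-3.17 to -2.85) at 5 μM. CDT1 had 1553, 1244 and 242 counts (-1.57, and -0.95 with GC and length trends removed). GMNN had 3505, 4327 and 1634 counts, which is 0.01 after scaling and -0.68 with library totals. The origin recognition complex held the member furthest above DMSO. ORC4 (chr2:147930397-148021604, minus strand) had 800, 952 and 2108 counts, a log2 fold change of 2.50 (2.39 to 2.63), and of 1.81 with library totals. It was the 1 member with more raw counts at 5 μM than at DMSO by over 2-fold. An antisense gene, ACVR2A, shares 430 bases with ORC4 exons and had 133, 124 and 646 counts. Another, MBD5, shares 157 bases and had 453, 470 and 70 counts. The part of these genes in the ORC4 counts was not tested. ORC1 had 1126, 1265 and 146 counts (-1.83) and ORC2 had 1451, 1524 and 279 (-1.27). ORC6 had 2408, 2998 and 1588 (0.51, and -0.18 with library totals), and ORC3 and ORC5 were at 0.04 and -0.16.

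The clamp loader was divided by subunit. RFC2, RFC4 and RFC5, small subunits of the loader, had 369, 237 and 215 counts at 5 μM against 2780, 2100 and 1435 with DMSO, log2 fold changes of -1.80, -2.03 and -1.63. RFC1, the large subunit of the complex, had 3030, 3892 and 3511 counts (1.32, and 0.63 with library totals), and RFC3 had 762, 842 and 771 (1.12, and 0.43 with library totals or 0.61 with GC and length trends removed). PCNA, the clamp itself, had 2660, 3362 and 975 (-0.34). In RPA, RPA2 had 3974, 4212 and 353 counts (-2.38), while RPA1 had 5538, 6167 and 2632 (0.03, and -0.66 with library totals) and RPA3 was at -0.59.

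Among the polymerases that extend the strands, POLD3 had 3314, 3410 and 243 counts (-2.66), POLD2 had 3326, 2788 and 693 (-1.15, and -0.75 with GC and length trends removed) and POLD1 was at -0.87. POLE, the catalytic subunit of polymerase epsilon, had 5767, 6404 and 1571 counts (-0.77), and POLE2 had 547, 634 and 80 (-1.65). FEN1 had 6175, 6854 and 1757 counts (-0.70) and LIG1 had 8683, 9216 and 2900 (-0.47), so neither of the Okazaki fragment genes was past 2-fold. CLSPN had 9168, 11991 and 606 counts, 7.01-fold lower at 5 μM (-2.81). WDHD1, the adaptor between helicase and polymerase alpha, had 2492, 2856 and 211 (-2.45). TIMELESS, a partner of CLSPN at the fork, had 6112, 5254 and 2791 (-0.02), and TIPIN was at -0.91. Of the kinase that triggers firing, CDC7 had 1302, 1855 and 180 counts (-1.74) while its activator DBF4 had 1273, 1130 and 854 (0.53, and -0.16 with library totals).

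Between the doses, 39 members were lower at 5 μM than at 1 μM beyond counting error and 8 were higher. The median difference was -1.02 on the log2 scale. The same counts over all genes are not reported here, so these have no background share. Taking both doses as 1 group, edgeR's quasi-likelihood test called 0 members, where 0.0767% of all genes (12) were called. No member had an unadjusted p under 0.05, as 228 genes had, and DESeq2 also called 0 members, and 4 genes lower and 14 higher. An alternative model with a slope on log2(dose in μM + 1) uses the distance of the 1 μM library from the line between the others as its spread. It called 16 members lower and 1 higher, where 11.1% of all genes were called lower and 13.3% higher. POLA2 had the smallest adjusted p among them in edgeR's quasi-likelihood test (0.00023), followed by ORC4 (0.00061), the 1 called higher, GINS1 (0.00094), PRIM1 (0.0018) and GINS4 (0.0019). The other 12 were POLD3, CDC6, CLSPN, WDHD1, RPA2, MCM3, MCM4, RFC4, CDC45, RFC2, ORC1 and CDC7.

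**Figure D3:**
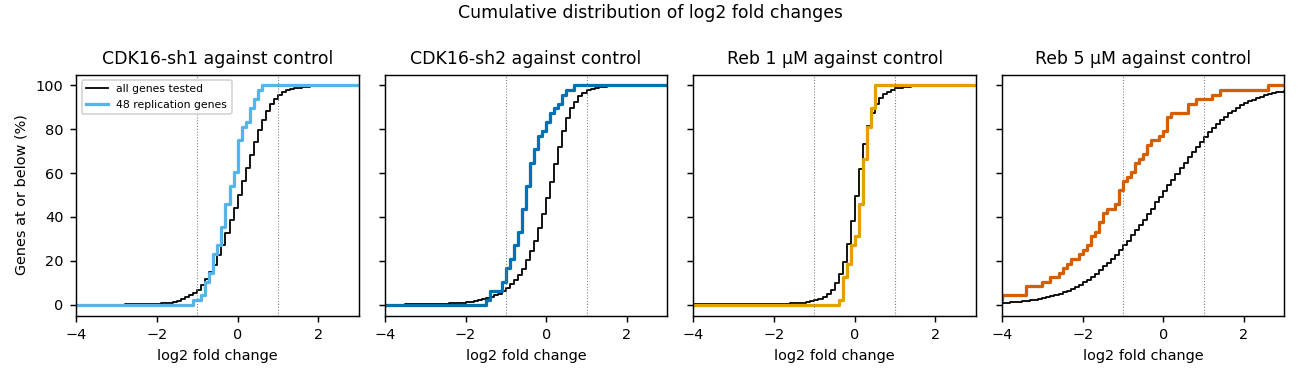
Percent of genes at or below each log2 fold change, for all genes tested (black) and the 48 replication genes (colour), in the 4 comparisons. The curve of the replication genes lies mostly to the left of all genes at CDK16-sh2 (medians -0.53 and 0.018). In the lower tail there it lies to the right, with 0% of the replication genes and 2.39% of all genes at or below -1.6. At 5 μM Reb the curve also lies mostly to the left (medians -1.12 and -0.070). At 1 μM Reb it lies to the right around the middle (medians 0.12 and 0.0016) and to the left at 0.4, where 89.6% of the replication genes and 87.4% of all genes are at or below.

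Ratios between partner transcripts within a library do not depend on how libraries are scaled. The pairs were chosen after the values were seen and are given as a description. POLA1 to POLA2 was 5.04 with DMSO (interval 4.64 to 5.49), 7.17 with 1 μM and 340 (145 to 1048) with 5 μM Reb, and 1.79, 1.19 and 1.73 with scramble, CDK16-sh1 and CDK16-sh2. RPA1 to RPA2 was 0.512, 0.538 and 2.74 across the Reb libraries and 0.616, 0.507 and 0.380 across the knockdown libraries. The RPA pair thus stood on opposite sides of its control ratio with CDK16-sh2 and with 5 μM Reb. ORC4 to ORC1 was 0.252 with DMSO and 5.11 with 5 μM, and 0.385 and 0.761 with scramble and CDK16-sh2. GMNN to CDT1, the inhibitor to its target, was 2.09, 1.66 and 5.34 across the knockdown libraries and 3.04, 4.69 and 9.10 across the Reb libraries. TIMELESS to CLSPN was 0.548, 0.779 and 1.57, and 0.620, 0.408 and 4.28. MCM3 to MCM2, within the ring, was 3.31, 3.30 and 3.33 across the knockdown libraries, and 4.48, 5.37 and 1.58 across the Reb libraries. The 3 knockdown libraries thus had MCM3 and MCM2 in 1 proportion within their intervals.

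**Figure D4:**
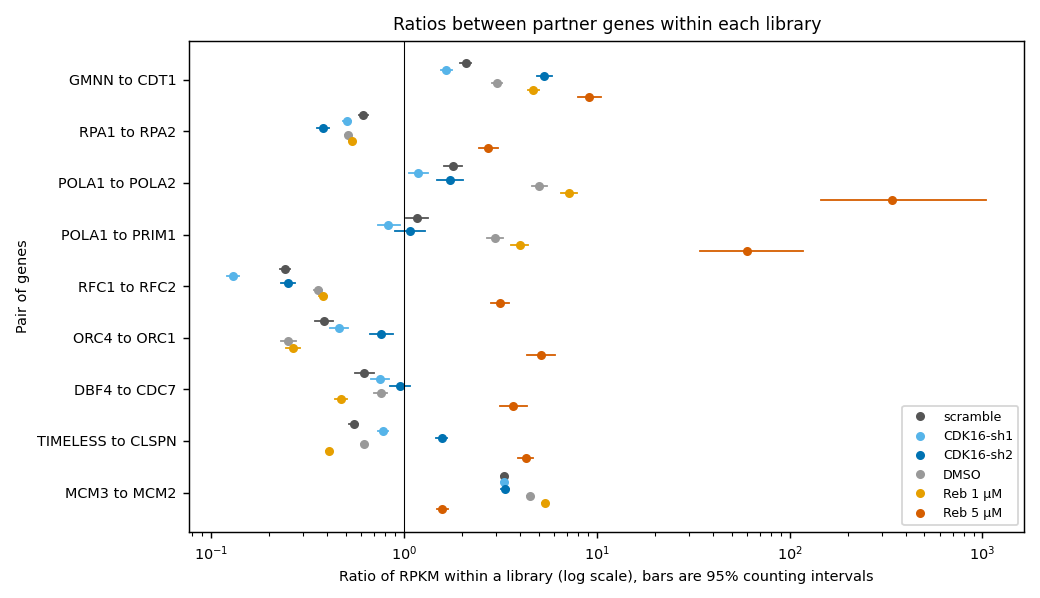
Ratio of the RPKM of 2 partner genes within each library (log scale), 9 pairs, with 95% counting intervals as bars. The 5 μM Reb library stands apart from the other 5 in every pair, for example at 340 for POLA1 to POLA2 where the others lie between 1.19 and 7.17.

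The knockdown and Reb experiments have separate controls, so their values can be set side by side. Of the 8 members at least 2-fold lower with CDK16-sh2, 7 were among the 27 at least 2-fold lower with 5 μM Reb, that is 7 of 8 and 7 of 27. The 27 are 56.25% of the 48 members and the 8 are 16.7%, so a large overlap is likely among the members from these shares alone. Over all 14410 genes tested in both, 406 were 2-fold lower in both libraries, 38.4% of the 1057 lower with CDK16-sh2 and 10.3% of the 3935 lower with 5 μM. The exception among the members was RPA1. The log2 fold changes of the 48 members with CDK16-sh2 and with 5 μM Reb were correlated at r = 0.50 (Pearson) and rho = 0.50 (Spearman), where all 14410 genes tested in both had r = 0.080. With CDK16-sh1 and 5 μM Reb, r was 0.077 over the members. These are descriptions over genes that share libraries and are not independent. The mitochondrial share was high in the CDK16-sh2 and 5 μM libraries alike, and its part was not tested.

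**Figure D5:**
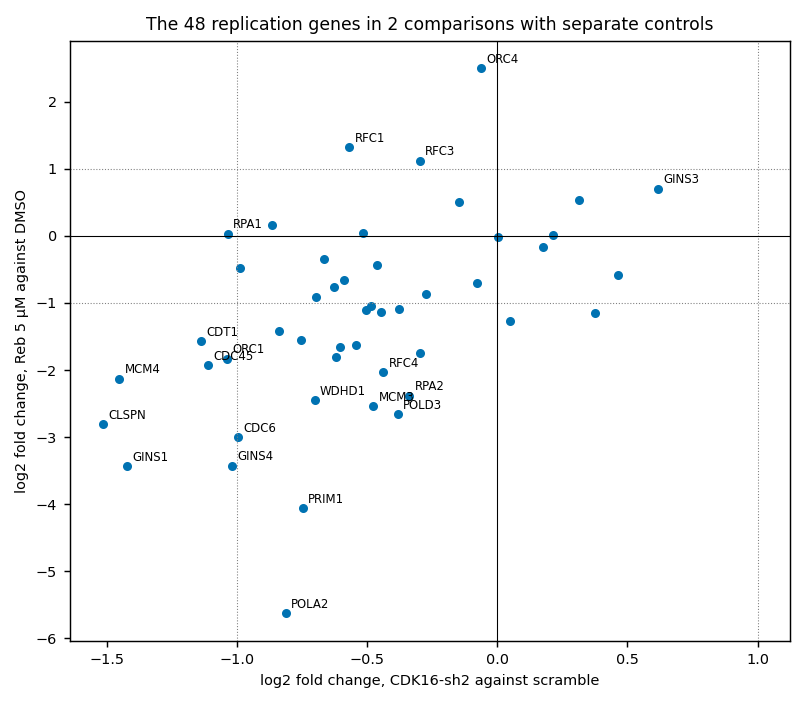
Log2 fold change of each of the 48 replication genes with CDK16-sh2 against scramble (x axis) and with 5 μM Reb against DMSO (y axis), dotted lines at 2-fold. The 7 genes past 2-fold lower on both axes include CLSPN, GINS1 and MCM4, whereas RPA1 lies at -1.04 and 0.03 and ORC4 at -0.06 and 2.50.

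A further 48 genes of replication, which regulate firing and licensing, assist the fork or assemble chromatin behind it, were measured in the same libraries. With CDK16-sh1 their median log2 fold change was -0.42, with 4 at least 2-fold lower (8.33%, against 6.86% of all genes). With CDK16-sh2 it was -0.30, with 5 (10.4%, against 7.62% of all genes), so both counts were near the share of all genes. After 1 μM Reb it was -0.05, with 1 lower (1.92% of all genes), and after 5 μM it was -1.10, with 26 lower (27.2%) and 3 higher (23.6%). DSCC1, a subunit of the alternative clamp loader that aids cohesion, was 2-fold lower with each hairpin, with 713, 348 and 330 counts (-1.31 and -1.001), the second at -0.88 with GC and length trends removed. POLD4, the smallest subunit of polymerase delta, was 2-fold lower at each dose, with 697, 345 and 148 counts (-1.03 and -1.12). At 1 μM that call was lost with library totals (-0.98), and with GC and length trends removed both were (-0.87 and -0.78). An E2F word was in 5 of the 38 promoters listed for these genes (13.2%).

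Features that the list did not use were also compared. The 48 members lie on 19 chromosomes. Their median gene length, as deposited with the counts, was 4348 bases, against 4350 for all genes tested. Their median GC content was 45.3%, against 48.6%. Across the members, the log2 fold change at 5 μM Reb correlated with GC content at r = -0.17, with log2 length at 0.12 and with log2 RPKM in the control at -0.11. For CDK16-sh1 the values were 0.30, -0.34 and -0.018, and for CDK16-sh2 -0.10, -0.098 and -0.23. For 1 μM Reb they were -0.44, 0.039 and -0.024, so the relation with GC content was the largest in size there. Of the members, 19 share exon bases with another gene in the tables, 16 of them with a gene on the opposite strand, and 9 over more than 5% of their length.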

How the data were processed

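RNA-seq of 6 MDA-MB-231 libraries, 1 per condition, was analysed from the processed tables. Libraries were stranded mRNA preparations sequenced on a HiSeq X 10. Per the submitters' processing notes, Trimmomatic, featureCounts, Subread 1.5.1 and GRCh38 were used. The aligner's settings, the annotation release and whether counting used the strand are not given in the sources used here. The deposited tables hold whole-number read counts per gene symbol, and the deposited RPKM values are those counts divided by gene length and by the total count. Total counts were 25838443 to 50303269 per library, and intervals cover counting error only.

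Counts were analysed in R 4.3.3 with edgeR 4.0.16. Log2 fold changes against the control of the same experiment used TMM-scaled CPM (prior count 2) for genes that averaged 1 CPM or more in the experiment. The threshold was 2-fold, as in the study. Intervals are 95% Clopper-Pearson intervals on the 2 counts of a comparison. With 1 library per condition, the test took both treated libraries as 1 group (edgeR quasi-likelihood, Benjamini-Hochberg adjusted p of at most 0.05 and 2-fold), so that the difference between treated libraries is the spread. DESeq2 1.42.0, other scalings and filters, the authors' RPKM with 0.1 added, removal of GC and length trends and dose as a linear term were alternatives. Where RefSeq listed several promoters for a symbol, as for 9 members, the first was taken, and motifs were searched on both strands of the 250 bases before the start. Promoters of RPA2, RPA3, POLD3, MCM4, MCM5 and GINS4 were not used here, and 1 cell line marker is not reported here.

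All 48 members could be named. Full values were given for CDK16, MCM7, the 6 largest differences past 2-fold in each direction and the most abundant member of each complex, and further members were added. Of the further replication genes, those past 2-fold on 1 side in both treated libraries of an experiment were named. The members, lists and this rule were chosen with earlier results of these data known.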

Additional observations from a re-analysis of the deposited data

Results flagged for a closer look

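The library of cells treated with 1 μM Reb held 181 counts summed over the blood cell markers PTPRC, CD3E, CD79A and LYZ, of which LYZ gave 130. The DMSO library held 11 and the 5 μM library 12. These genes enter no comparison above, and the difference stood out because it exceeded the level in the control library.

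With TMM scaling, the hairpins lay on opposite sides of the scramble library for 7 members, each beyond its counting interval (share of all genes not reported here). The difference of CDK16-sh2 minus CDK16-sh1 on the log2 scale was -0.64 for MCM7, 0.63 for GMNN and -1.11 for GINS2. It was -0.76 for PRIM2, -0.50 for POLD1, -0.88 for RFC4 and -0.64 for RPA2. GMNN was the 1 gene of the 7 that was higher with CDK16-sh2 than with CDK16-sh1. It lay at 0.21 with CDK16-sh2, while scaling by library totals moved the median of all genes there by -0.19. The place of GMNN beyond its interval therefore rests on the scaling. With 1 library per hairpin, these differences were not tested beyond counting error. With GC and length trends removed, the CDK16-sh1 values of MCM7 and POLD1 lay below 0, at -0.012 and -0.20. MCM7 shares 392 exon bases with an antisense gene, AP4M1, which had 1594, 3302 and 1470 counts with scramble, CDK16-sh1 and CDK16-sh2. POLD1 shares 426 with CTD-2545M3.6 on the same strand, which had 175, 435 and 200 counts. GINS2 and RFC4 share 7 and 21 bases with antisense genes. The part of these overlaps was not tested.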

How the results depend on the processing

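Of 99 recomputed medians and counts, 84 stayed within the limits (a count within 1.5 times its reported value, a median within the median half-width of the members' counting intervals), 15 moved and 0 reversed. With CDK16-sh1, the count of members at least 2-fold lower was 1. It was 0 with GC and length trends removed (4.84% of all genes) and 12 at 1.5-fold (25% of members, 18.8% of all genes). With CDK16-sh2 the count was 8. It was 13 with library totals (11.1% of all genes) and 5 with GC and length trends removed (6.12% of all genes). At 1.5-fold it was 22 (45.8% of members, 16.8% of all genes), and 1 member was higher (11% of all genes). The CDK16-sh2 median was -0.73 with library totals and -0.71 with the authors' RPKM. At 5 μM Reb the median was -1.81 with library totals, -1.80 with the authors' RPKM, -1.32 with no filter and -0.87 with GC and length trends removed. The count at least 2-fold higher was 1 with library totals (11.7% of all genes) and 1 with the authors' RPKM (11.1% of all genes). With library totals the median of all genes itself moved by -0.68 at 5 μM and by -0.19 with CDK16-sh2. For Reb, the test called 0 members with both doses as 1 group and 17 with dose as a linear term; beyond this difference in construction the cause was not tested. Of 273 recomputed values of single members past 2-fold, 163 moved by less than their counting interval, 110 moved further and 0 reversed. No paired analysis was possible because each condition had 1 library. For the same reason no library could be left out: without a treated library, no residual degrees of freedom remain. At 5 μM, 3 members had under 50 counts, which widens their intervals.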
